A study of Mus musculus with 6 samples.

Results

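The genes described here are named after the translation initiation and elongation factors of the cytosol. They were chosen by name alone: gene symbols that begin with Eif1 to Eif6, or with Eef1 or Eef2, leaving out the Eif2ak kinases and names marked -ps. This gave 61 of the 24537 genes listed, which were sorted by symbol into 10 groups named by role. All 61 are called factor genes below, though not all encode a factor. Some encode proteins that act on factors, such as the kinase gene Eef2k and the eIF4E-binding protein genes. The measurements were RNA-seq of cerebellum from male mice aged 6 weeks, with 3 libraries labelled wild type and 3 labelled Reln HET, which the series' design text describes as heterozygous for a null allele of the reelin gene. The study compared these groups to find genes whose expression differed when a reelin allele was lost. The wild-type libraries carry the strain label C57BL/6 and the heterozygous libraries the strain label Orl/BalbC, so genotype and labelled strain cannot be told apart in any comparison below. Whether each library is a different mouse is not stated, so p-values measure only the spread between these libraries, which may be technical. Levels are in FPKM, the number of fragments of a gene scaled to its exon length and to the size of the library, so that levels can be compared between genes.

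Translation initiation loads the small ribosomal subunit with initiator tRNA, brings it to the capped end of an mRNA and moves it to a start codon, where the large subunit joins. eIF2 carries the initiator tRNA, eIF2B recharges eIF2 with GTP, eIF3 holds the small subunit and the eIF4 proteins bind the cap and unwind the mRNA. In elongation eEF1A delivers aminoacyl-tRNAs, the eEF1B subunits recharge eEF1A, and eEF2 moves the ribosome along. Many mRNAs of elongation factors and of some eIF3 subunits begin with a run of pyrimidines, the terminal oligopyrimidine tract, through which their translation is controlled together with that of ribosomal protein mRNAs. Neurons depend on local control of these steps for synaptic plasticity, and inherited eIF2B defects damage the brain's white matter.

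RefSeq start windows (build GRCm38.p6) are shown first, because genes of the terminal oligopyrimidine list recur in the results below. Each window holds 10 bases before the annotated start and 20 from it, read in the direction of transcription. The capitals mark a run of 8 or more letters, all C or T and the first a C, that begins within 5 bases of the start. No other motif was searched. Of the 61 genes, 46 matched an entry of the RefSeq promoter table and 7 of these held such a run.
Eif3f: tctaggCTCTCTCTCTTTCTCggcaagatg
Eif2s3x: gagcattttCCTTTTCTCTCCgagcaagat
Eif2s3y: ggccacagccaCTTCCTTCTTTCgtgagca
Eef1a1: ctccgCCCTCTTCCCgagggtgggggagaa
Eif3l: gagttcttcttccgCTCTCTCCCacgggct
Eif2b2: ccgagcggaagttgaCCTCTCTCggcccgg
Eif2b5: ctctttCTCTCCCTgcaactacaccttcgc
The Eif3f window is chr7:108934405-108934434 on the plus strand and its run of 15 letters was the longest of the 7. The windows of the X- and Y-linked copies of the eIF2 gamma gene, Eif2s3x (chrX:94212632-94212661, minus strand) and Eif2s3y (chrY:1010585-1010614, plus strand), each held a run of 12 letters, with different letters. The Eef1a1 window is chr9:78481705-78481734 on the minus strand, with a run of 10 letters. Eif3l (chr15:79075213-79075242), Eif2b2 (chr12:85219471-85219500) and Eif2b5 (chr16:20498807-20498836), all on the plus strand, held runs of 9, 8 and 8 letters. Such a run was present in 15.22% of the matched factor genes and in 5.17% of the 27025 genes of the table, or 4.37% of its 32851 promoters. On the opposite strand 5.59% of the promoters held it. Of the 11 genes of the terminal oligopyrimidine list, 7 were matched and 3 held the run: Eef1a1, Eif2s3x and Eif3f. A match describes these letters only. It is not evidence of a site, nor that the mRNA begins at the annotated start.

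Cerebellar identity and library quality were checked before the factor genes were compared. Summed levels of 8 granule cell markers were 536 to 614 FPKM in the wild-type libraries and 568 to 610 in the heterozygous ones, and the 4 forebrain markers summed to 0.563 to 1.11 FPKM over all libraries. Reln levels of 0.834, 0.771 and 0.940 FPKM (wild type) and of 0.531, 0.509 and 0.580 FPKM (heterozygous) did not overlap. The approximate depth, estimated from the steps of low FPKM values, was 22880000 to 28340000 reads. Most of those low values did not come out as whole reads at it, so read numbers given below are rough. Choroid plexus markers varied within both groups, their sum over 7 genes, none at 0 everywhere, ranging over 2.32 to 305 FPKM for wild type and over 5.99 to 176 FPKM for heterozygous libraries. The test took in 6358 genes, those whose mean over the libraries reached 1 FPKM. These included 47 of the 61 factor genes.

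Factor mRNAs spanned a wide range of levels in the cerebellum, led by the elongation factors. Together the 61 genes took 1.8% to 2.33% of the summed FPKM of a library, and Eef1a1 alone made up 39.4% to 44.4% of that share. Eef1a1, the widely expressed eEF1A gene, had a mean of 518 FPKM over the 6 libraries and ranked 4 or 5 among all genes of each library. Eef2, the only eEF2 gene, followed at 157 FPKM. Next came the cap-complex helicase gene Eif4a2 at 96.0 FPKM and Eef1a2, the eEF1A gene of mature neurons and muscle, at 88.8 FPKM. The spreads of these last 2 overlapped, with Eif4a2 at 81.1 to 107 FPKM and Eef1a2 at 72.7 to 97.8 FPKM. A further set lay close together: Eif4a1 at 34.4 FPKM, Eif4g2, a scaffold related to eIF4G that does not bind eIF4E, at 33.9 FPKM, and Eif5, the factor that triggers GTP hydrolysis by eIF2, at 32.2 FPKM. Eif5a at 28.2, Eif1b at 27.9 and Eif1 at 22.8 FPKM completed the 10 most abundant, and their ranges over libraries overlapped.

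**Figure D1:**
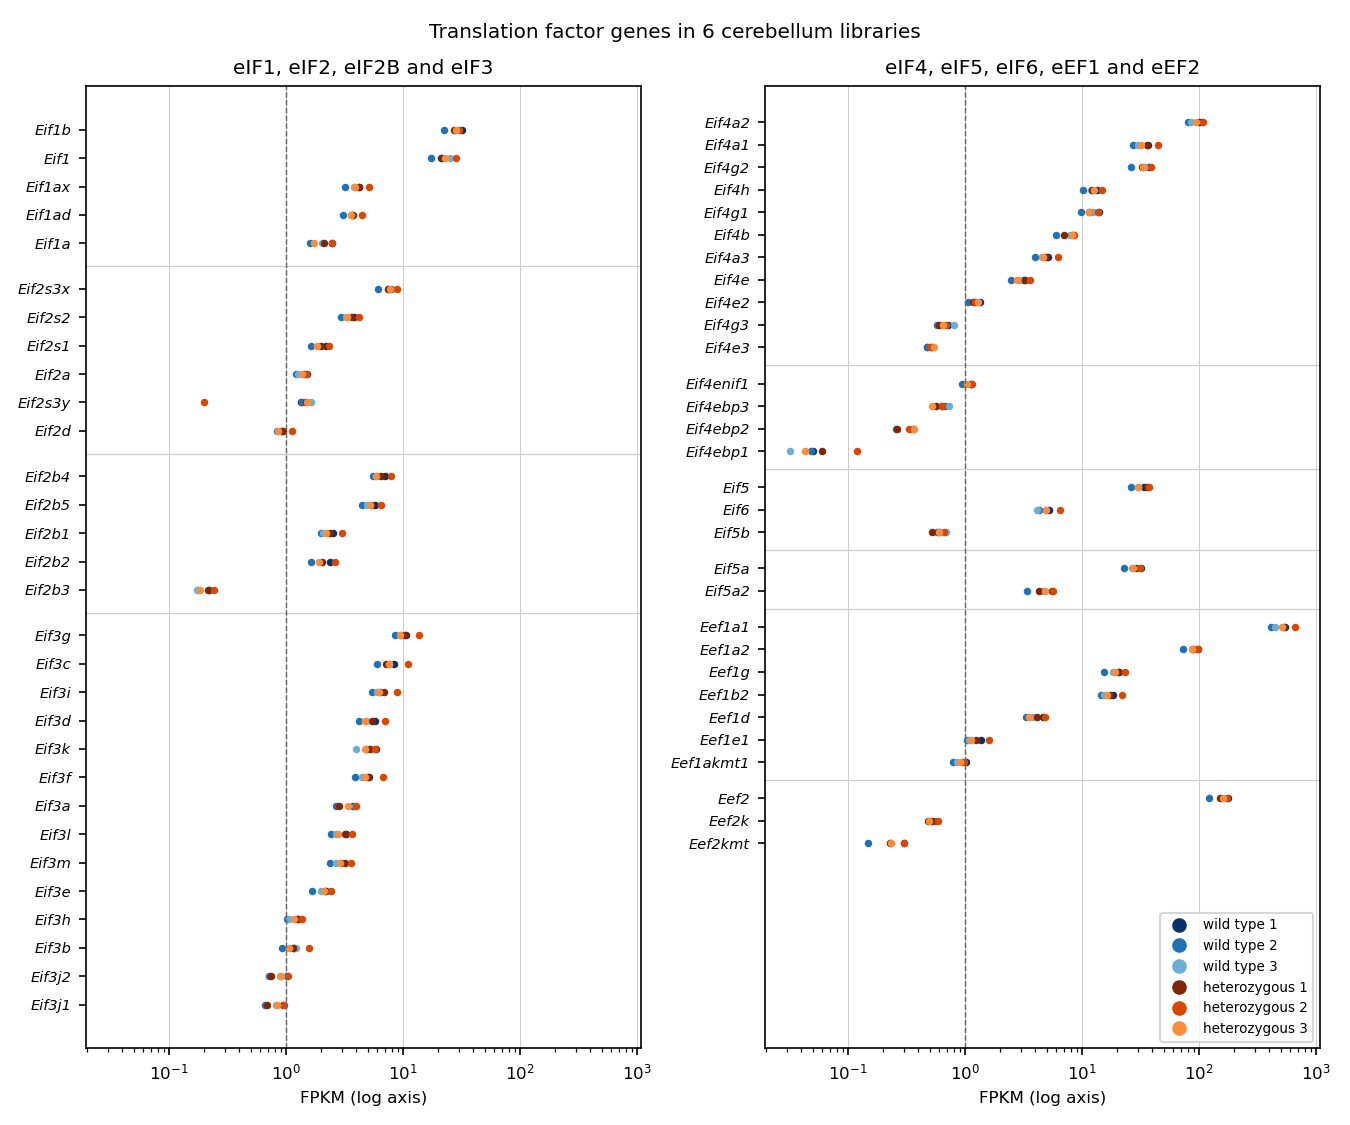
FPKM of each factor gene in each of the 6 cerebellum libraries on a log axis, grouped by role; the dashed line marks 1 FPKM and Eif4e1b, listed at 0 in every library, is not drawn. Eef1a1 and Eef2 lie at the top, and Eif2s3y has 1 library (heterozygous 2) far below the others.

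Subunits of the same complex differed in level. In eIF3, the 12 tested subunit genes had means from 1.18 FPKM (Eif3b) to 10.4 FPKM (Eif3g). The near-identical genes of the loosely bound subunit, Eif3j1 and Eif3j2, were at 0.819 and 0.889 FPKM, and 87.7% of the read-length stretches (73 bases) of Eif3j2 transcripts also occur in Eif3j1, so their reads could be split between them. In eIF2B the catalytic epsilon gene Eif2b5 was at 5.36 FPKM and the delta gene Eif2b4 at 6.49 FPKM. The alpha and beta genes, Eif2b1 and Eif2b2, were at 2.37 and 2.10 FPKM, and the gamma gene Eif2b3 at 0.203 FPKM. In eIF2 the gamma gene Eif2s3x was at 7.61 FPKM, the beta gene Eif2s2 at 3.52 and the alpha gene Eif2s1, whose protein is the target of the stress kinases, at 1.99 FPKM. These differences are between mRNA levels and carry no information on protein.

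The 14 genes below the test's minimum were described without a test. Eif4e1b, the eIF4E gene of oocytes, was listed at 0 in every library. The eIF4E-binding proteins, which block cap-complex assembly, were low: Eif4ebp1 was at 0.059 FPKM, Eif4ebp2 at 0.322 and Eif4ebp3 at 0.626. Eef2k, the kinase that inactivates eEF2, was at 0.527 FPKM, and Eif5b, the GTPase of subunit joining, at 0.606. The others were Eif4g3, Eif4e3, Eif2d, Eif2b3, Eif3j1, Eif3j2 and the methyltransferase genes Eef1akmt1 and Eef2kmt, at 0.203 to 0.930 FPKM. Eif4ebp3 was the only 1 of the 14 whose groups did not overlap as deposited, at 0.637, 0.674 and 0.725 FPKM in wild type and 0.562, 0.635 and 0.521 in heterozygous libraries. At the roughly estimated depth these values correspond to about 8.87 to 15.3 reads a library. Of the read-length stretches of Eif4ebp3, 64.3% also occur in another gene model. When no minimum was set, 5.96% of all genes did not overlap.

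No tested factor gene differed between the groups by limma's test with Benjamini-Hochberg adjustment. The count was 0 of 47 at an adjusted p under 0.05, where 0.0786% of all tested genes (5 of 6358) were called. At an unadjusted p under 0.05 it was 1 of 47, Eif2s3y, against 3.33% of all tested genes (212). No factor gene had groups that did not overlap, against 5.55% of all genes. The heterozygous mean was the higher for 45 of the 47, the exceptions being Eif2s3y and Eif3a, and 83.1% of all tested genes also had the higher mean there. The median difference (log2 of FPKM + 1, heterozygous mean less wild-type mean) was 0.12 over the factor genes and 0.083 over all tested genes. In bulk tissue, fewer cells of a type and less RNA per cell cannot be told apart in any of these values.

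Library-wide shifts ran through these values. As a percentage of each gene's own mean, the median factor gene was 106.9, 81.72 and 94.45% in wild-type replicates 1 to 3, then 100.9, 119.3 and 96.45% in heterozygous replicates 1 to 3. The same medians over all tested genes were 107.2, 83.44 and 96.66% and then 100, 112.8 and 97.98%. Wild-type replicate 2 was therefore the lowest library and heterozygous replicate 2 the highest for both sets. Wild-type replicate 2 held the lowest value for 44 of 47 factor genes and for 78.4% of all genes. Heterozygous replicate 2 held the highest value for 38 of 47 factor genes and for 56.3% of all genes. Choroid plexus RNA also differed between these libraries, with Ttr levels of 272.6, 0.566 and 149.7 FPKM in wild type and 3.15, 156.2 and 6.43 FPKM in heterozygous libraries, and its part in the factor levels was not tested.

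**Figure D2:**
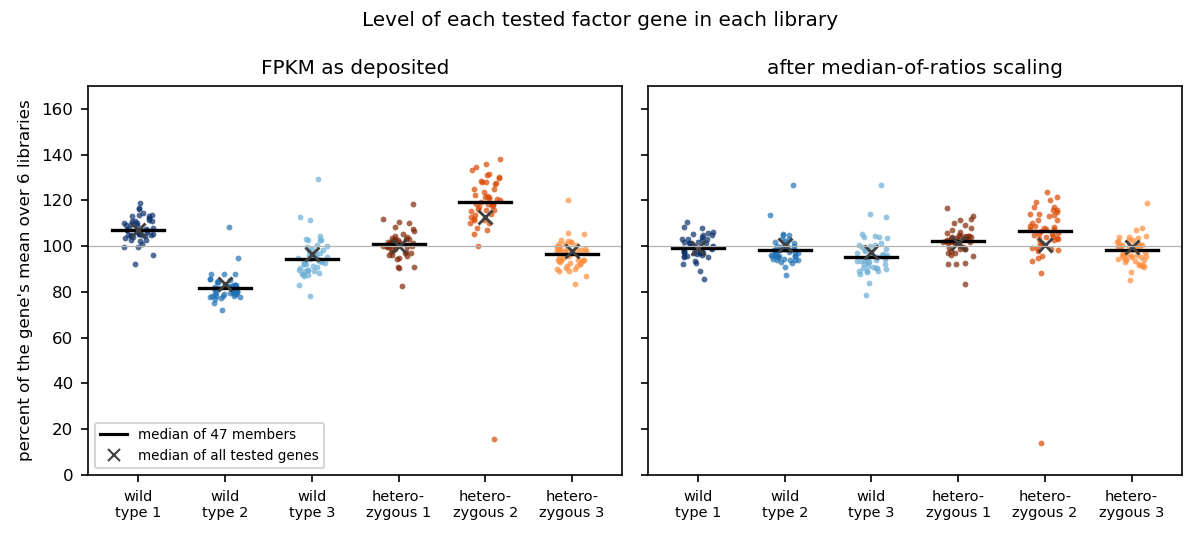
Level of each of the 47 tested factor genes in each library as a percentage of the gene's mean over 6 libraries, for FPKM as deposited (left) and after median-of-ratios scaling (right); bars are medians of the 47 genes and crosses medians of all 6358 tested genes. Heterozygous replicate 2 is the highest library at 119.3% and wild-type replicate 2 the lowest at 81.72% before scaling, and after it the factor median of heterozygous replicate 2 is 106.5%.

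Median-of-ratios scaling, which sets each library to the same median ratio over genes, removed most of this spread. The scaling factors were 1.09, 0.838 and 0.998 for wild type and 0.994, 1.13 and 0.990 for heterozygous libraries. The median coefficient of variation of the factor genes over the 6 libraries went from 14.3% to 7.09%, and that of all genes from 12.7% to 7.69%. After scaling, Eef1a2 varied least among the tested factor genes, with a coefficient of variation of 2.02%, and Eif2s3y most, with 43.6%. In heterozygous replicate 2 the median factor gene remained at 106.5% of its mean, where the median of all genes was 100.3%. The heterozygous mean was then the higher for 36 of 47 factor genes and for 57.1% of all genes, with median log2 differences of 0.053 and 0.013.

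Eif2s3y stood apart from the other 60 genes because of 1 library. The gene, ENSMUSG00000069049 at chrY:1010543-1028847 in GRCm38, encodes the Y-linked copy of the eIF2 gamma subunit, which is required for the proliferation of spermatogonia in the testis. Its level was 1.36, 1.37 and 1.63 FPKM in wild type, and 1.495, 0.201 and 1.513 in heterozygous replicates 1, 2 and 3. The low library was heterozygous replicate 2, and the other heterozygous libraries lay within the wild-type range. The means were 1.45 ± 0.15 and 1.07 ± 0.75 FPKM (SD, n = 3 each). On the log2 scale heterozygous libraries differed by -0.32 (SE 0.13), with a limma adjusted p of 0.899.

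At the roughly estimated depth, the low value corresponded to about 17.1 reads, where the other libraries had about 108 to 144. It was 0.148 times the lowest of the other libraries. No other gene of the 6358 tested was under 0.25 times the lowest other library in heterozygous replicate 2 (0.0157% of genes). Only that library and direction, where Eif2s3y was low, were scanned. Large differences between libraries occurred elsewhere too, though not in 1 library alone for Ttr. It was at 0.566 FPKM in wild-type replicate 2 and at 3.15 and 6.43 in heterozygous replicates 1 and 3. In the other libraries Ttr was at 149.7 to 272.6 FPKM. Other Y-linked genes were not low to the extent of Eif2s3y in heterozygous replicate 2. Ddx3y, an RNA helicase gene, was at 4.25 FPKM, above its 2.70 to 3.63 in the other libraries. Uty and Kdm5d, a pair of histone demethylase genes, were at 0.384 and 0.625 FPKM, against 0.333 to 0.391 and 0.672 to 0.742 elsewhere. Xist, the RNA of the inactive X chromosome, did not exceed 0.0031 FPKM in any library. The X-linked partner Eif2s3x was at 8.90 FPKM in heterozygous replicate 2 and at 6.10 to 7.96 in the other libraries. No read-length stretch of Eif2s3y transcripts occurs in another annotated gene, Eif2s3x included.

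Without heterozygous replicate 2 the Eif2s3y difference was 0.033 on the log2 scale, with a limma adjusted p of 1.0. With that library kept, the gene was called when wild-type replicate 1 (limma adjusted p 0.0491), heterozygous replicate 1 (0.00526) or heterozygous replicate 3 (0.00103) was left out, where 0.983, 0.299 and 0.659% of all tested genes were called. The adjusted p over all settings ran from 0.00103 to 1.0. What lowered the value in this library was not tested.

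**Figure D3:**
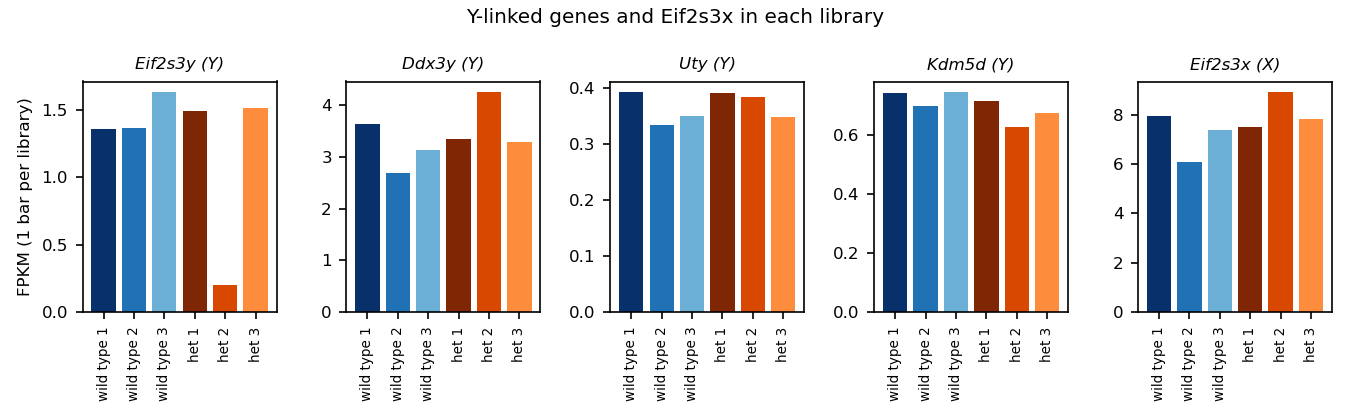
FPKM of the Y-linked genes Eif2s3y, Ddx3y, Uty and Kdm5d and of the X-linked Eif2s3x, 1 bar per library (het, heterozygous). Only the Eif2s3y panel has a bar far below the others, heterozygous replicate 2 at 0.201 FPKM.

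Among the genes grouped by symbol under start codon scanning all 5 passed the minimum and none was called. Eif1ad is in this group by its symbol alone. eIF1 and eIF1A keep the scanning ribosome open until the start codon is found. Eif1ax, the X-linked eIF1A gene, was at 4.19, 3.23 and 3.81 FPKM in wild type and 4.18, 5.09 and 3.93 in heterozygous libraries. Its groups overlapped as deposited, and they differed by 0.19 on the log2 scale (SE 0.13, limma adjusted p 0.899). Its autosomal paralogue Eif1a differed by 0.031 (SE 0.12) and was 0.033 lower in heterozygous libraries after scaling. Eif1 differed by 0.18 (SE 0.17) and Eif1b by 0.077 (SE 0.17).

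No eIF2 or eIF2B subunit gene was called. Eif2s1 was at 2.21, 1.63 and 1.89 FPKM in wild type and 2.01, 2.34 and 1.84 in heterozygous libraries. The groups overlapped, and the difference was 0.078 on the log2 scale (SE 0.11, limma adjusted p 0.899). Eif2s2 differed by 0.12 and Eif2s3x by 0.16, with SEs of 0.13 and 0.14. In eIF2B all 4 tested genes had the higher mean in heterozygous libraries, by 0.089 (Eif2b2) to 0.15 (Eif2b5), and 0 of 4 were called.

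In eIF3 the heterozygous mean was the higher for 11 of 12 tested subunit genes, with a median difference of 0.16, and 0 of 12 were called. Eif3i, a subunit of the scaffold built around eIF3b, had the largest difference in eIF3. It was at 6.40, 5.45 and 5.94 FPKM in wild type and 6.93, 8.95 and 6.22 in heterozygous libraries, a ratio of means of 1.24 and a log2 difference of 0.26 with an SE of 0.14 and a limma adjusted p of 0.899. Heterozygous replicate 2 was the highest and heterozygous replicate 3 fell below wild-type replicate 1. Eif3f, a subunit of the octameric core, was at 5.12, 3.91 and 4.46 FPKM in wild type and 5.01, 6.79 and 4.71 in heterozygous libraries, a log2 difference of 0.23 (SE 0.14). Eif3m, another core subunit, was at 2.98, 2.36 and 2.68 FPKM and then 3.21, 3.62 and 2.90, a difference of 0.21 (SE 0.12). Both genes overlapped between groups as deposited. Without heterozygous replicate 2 the log2 differences were 0.13 for Eif3i, 0.098 for Eif3f and 0.14 for Eif3m, so that Eif3i was no longer ahead. Eif3a, the large scaffold subunit, was the exception with a difference of -0.0091 (SE 0.13).

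The cap-binding and unwinding genes included the abundant helicases of eIF4F. Eif4a1 was at 36.5, 27.3 and 30.3 FPKM in wild type and 35.9, 44.6 and 31.7 in heterozygous libraries, a log2 difference of 0.24 (SE 0.17). Eif4a2 was at 100.8, 81.1 and 85.7 FPKM and then 106.1, 107.4 and 94.9, a difference of 0.21 (SE 0.18). The groups overlapped for both helicases because wild-type replicate 1 lay above the lowest heterozygous library. The Eif4a1 difference was 0.11 without heterozygous replicate 2 and 0.15 without wild-type replicate 2. Of the read-length stretches of Eif4a1 transcripts, 25.6% also occur in other annotated genes, 7 in number, so its level is uncertain. Eif4e, the cap-binding protein gene, differed by 0.12 (SE 0.12), and its scaffold gene Eif4g1 by 0.027 (SE 0.15). All 9 tested genes of this group had the higher heterozygous mean as deposited, 5 of 9 after scaling, and 0 of 9 were called. Eif4enif1, which carries eIF4E into the nucleus, differed by 0.021 (SE 0.087) and by -0.030 after scaling.

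Of the joining and recycling genes, Eif6, whose protein keeps the large subunit from joining early, differed by 0.21 (SE 0.14), or 0.092 without heterozygous replicate 2, and Eif5 by 0.19 (SE 0.17). The eIF5A genes, whose protein carries the hypusine residue and relieves stalled ribosomes, both differed by 0.11 (SE 0.17 for Eif5a and 0.14 for Eif5a2). None of these 4 was called and their groups overlapped.

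The elongation factor genes Eef1a1 and Eef2 were the most abundant, and Eef1a1 held the largest positive difference in log2(FPKM + 1). That rank depended on the pseudocount. With a pseudocount of 0.1, Eif3i (0.294) and Eif3f (0.276) lay ahead of Eef1a1 (0.275). Eef1a1 was at 546, 411.5 and 449.8 FPKM in wild type and 532.4, 661 and 508.8 in heterozygous libraries. Wild-type replicate 1 lay above heterozygous replicates 1 and 3, so the groups overlapped. The means were 469 ± 69 and 567 ± 82 FPKM (SD, n = 3 each), 0.27 apart on the log2 scale (SE 0.19, limma adjusted p 0.899). Without heterozygous replicate 2 that difference was 0.16, below the 0.175 of Eif4a2. Of the read-length stretches of Eef1a1 transcripts, 27.6% also occur in other annotated genes, 14 in number. How reads from such stretches were counted is not known, so its level is uncertain by an unknown amount. Eef1a2, with no shared stretch, was at 98.6, 72.7 and 86.8 FPKM and then 89.4, 97.8 and 87.4, a difference of 0.097 (SE 0.18). Eef1g, the eEF1B gamma subunit gene, was at 20.9, 15.5 and 18.3 FPKM and then 20.3, 23.2 and 19.3, a difference of 0.20 (SE 0.16) that was 0.12 without heterozygous replicate 2 and 0.090 without wild-type replicate 2. Eef2 was at 177.5, 122.7 and 157.5 FPKM and then 150.2, 172.9 and 160.4, a difference of 0.093 (SE 0.19) that was -0.0047 after scaling.

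**Figure D4:**
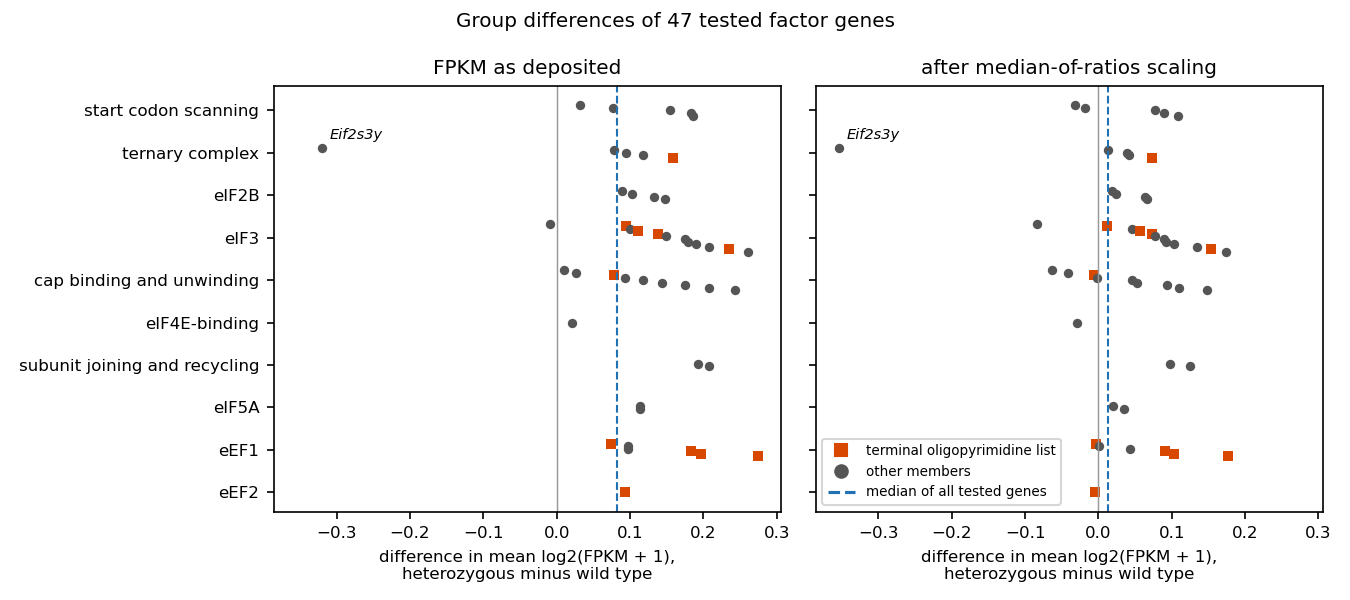
Heterozygous less wild-type mean of log2(FPKM + 1) for each of the 47 tested factor genes by role, for FPKM as deposited (left) and after median-of-ratios scaling (right); squares are genes of the terminal oligopyrimidine list, circles other factor genes, and the dashed line the median of all tested genes. Eif2s3y lies apart at -0.32, and after scaling the median of all genes moves from 0.083 to 0.013.

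After median-of-ratios scaling 7 factor genes had all 3 heterozygous libraries above all 3 wild-type libraries, where 7.38% of all genes did and 11.2% lacked overlap in either direction. None of the 47 was called by limma, nor was any of the 6342 genes tested on that scale, of which 337 had an unadjusted p under 0.05. The 7 were Eef1a1, Eef1g, Eif1ax, Eif2s3x, Eif3e, Eif3f and Eif3m, named after their values were seen. Scaled Eif3m was at 2.74, 2.82 and 2.68 FPKM in wild type and 3.23, 3.19 and 2.93 in heterozygous libraries, with a log2 difference of 0.13 (SE 0.051) and a limma adjusted p of 0.763. Scaled Eef1a1 was at 501.8, 491.1 and 450.8 FPKM and then 535.6, 583.4 and 513.9, a difference of 0.18 (SE 0.096). Scaled Eif3f was at 4.70, 4.67 and 4.47 FPKM and then 5.04, 6.00 and 4.75, so that heterozygous replicate 2 was the highest and replicate 3 lay just above the wild-type libraries. Eif3e, a subunit of the eIF3 core, was at 2.00, 2.01 and 1.98 FPKM and then 2.17, 2.14 and 2.15, with SDs of 0.015 and 0.014 within the groups.

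Genes of the terminal oligopyrimidine list were 5 of these 7. This list of 11 factor genes was all tested, with 0 called, and all 11 had the higher heterozygous mean, with a median difference of 0.14 where the other 36 factor genes had 0.12. After scaling, 8 of the 11 had the higher heterozygous mean and 5 (Eef1a1, Eef1g, Eif2s3x, Eif3e and Eif3f) did not overlap. That is 45.5% of the list on this scale, against 5.56% of the other factor genes and 7.38% of all genes. The list was chosen with earlier results of these data known, and no test of this share was run. In heterozygous replicate 2 the scaled median of all 47 tested factor genes stayed at 106.5% of the gene's mean, against 100.3% for all genes. As deposited, the groups overlapped for all 11. Of the lists described below, the scaled share was 16.7% for regulators and for synthetases, 13.0% for cofactors and 0.0% for mitochondrial factors. Eef1a1, Eif2s3x and Eif3f are also the 3 list genes whose start windows held the pyrimidine run. Whether the mRNAs begin at these annotated starts in cerebellum was not tested. Eef1g and Eif3e had no matched start window, so whether they hold such a run is unknown, and a link to the run was not tested. Eif2s3y, Eif3l, Eif2b2 and Eif2b5 held a run too, and their groups overlapped after scaling. Eif1ax and Eif3m did not overlap after scaling, and the longest such stretch in their windows was 1 and 2 letters. Of Eef1g 38.5% and of Eif2s3x 34.2% of read-length stretches occur in other annotated genes.

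Paralogues within a library share its depth, so the share of a pair's summed FPKM taken by 1 gene does not depend on the library's scale. It was compared for 11 pairs with an exact permutation test (two-sided), whose smallest possible p here is 0.1. Eef1a2 took 15.3, 15.02 and 16.18% of the eEF1A pair in wild type and 14.38, 12.89 and 14.66% in heterozygous libraries. All heterozygous libraries were below all wild-type libraries, at 14.0 ± 0.95% against 15.5 ± 0.60% (SD, n = 3 each). The difference was -1.52 percentage points (exact p 0.1, 0.629 after Benjamini-Hochberg adjustment over the 11 pairs), and -0.98 points without heterozygous replicate 2. It was the only 1 of the 11 pairs without overlap. With 3 against 3 libraries, random labels give no overlap with a probability of 0.1, so 1 of 11 pairs is near that share. Eef1a1, the larger of the pair, is the gene with shared stretches.

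The other 10 pairs had overlapping shares in the groups. Eif4a2, the helicase paralogue typical of neurons, made up 74.0 ± 0.70% of its pair with Eif4a1 in wild type and 73.4 ± 2.4% in heterozygous libraries. Eif4a1 shares 25.6% of its read-length stretches with other annotated genes, so this share is uncertain. Eif5a2 took 14.2 ± 1.1% and 14.4 ± 1.2% of the eIF5A pair. Eif1b took 56.1 ± 3.9% and 54.2 ± 2.3% of its pair with Eif1. Eif1ax took 65.0 ± 1.8% and 67.8 ± 1.5% of its pair with Eif1a, with an exact p of 0.2 and overlapping libraries. Eif2s3y took 14.57, 18.33 and 18.06% of the eIF2 gamma pair in wild type and 16.61, 2.21 and 16.24% in heterozygous libraries, again low in heterozygous replicate 2 alone.

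**Figure D5:**
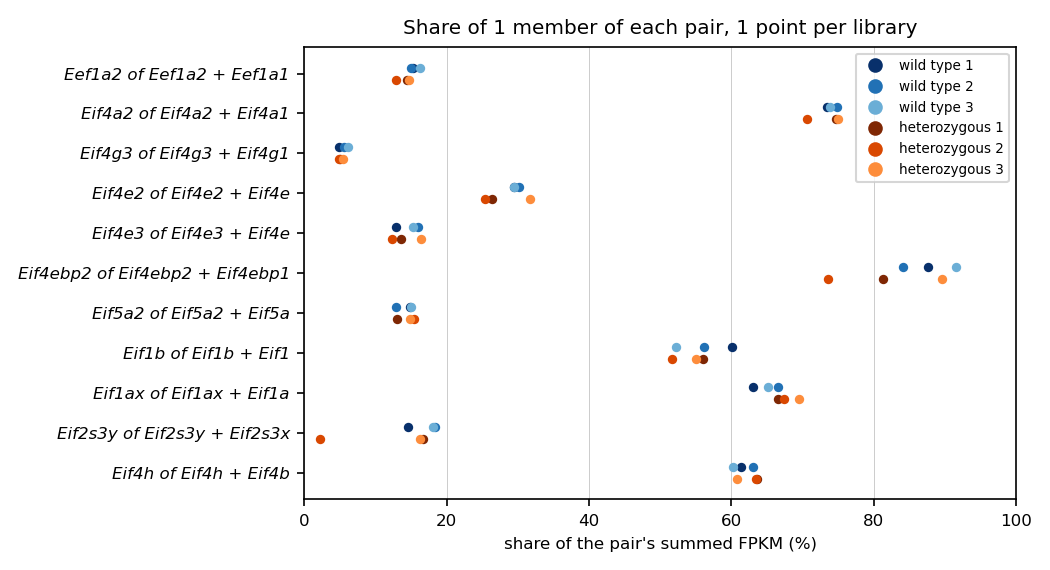
Share of a paralogue pair's summed FPKM taken by the first gene, in percent, for 11 pairs, with wild-type libraries above and heterozygous libraries below on each line. Eef1a2 is the only pair whose groups do not overlap (15.02 to 16.18% against 12.89 to 14.66%), and Eif2s3y drops to 2.21% in heterozygous replicate 2.

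Other genes of the translation apparatus were compared by list, and none was called in any list. Of 32 regulators of initiation and elongation, among them the eIF2 kinases, 24 were tested, with 18 higher and 6 lower in heterozygous means and a median difference of 0.033. After median-of-ratios scaling 9 of the 24 were higher, with a median of -0.027, so the balance turned. As a background, 83.1% of all tested genes were higher as deposited and 57.1% after scaling. Their 2 smallest p-values belonged to Dhps and Dohh, the enzymes that in turn make hypusine on eIF5A. Dhps was at 3.35, 2.60 and 2.72 FPKM in wild type and 3.25, 3.95 and 3.66 in heterozygous libraries, 0.25 apart on the log2 scale (SE 0.13, limma adjusted p 0.899). Dohh was at 7.36, 5.68 and 5.92 FPKM and then 7.40, 8.09 and 7.15, a difference of 0.23 (SE 0.14). Both overlapped as deposited. After scaling 4 of the 24 regulators, these 2 among them, had all heterozygous libraries above wild type and 1 had all below, where 7.38% of all genes were above and 11.2% lacked overlap either way. Scaled Eif5a differed by 0.020.

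Among 23 tested cofactors, such as poly(A)-binding and release factors, 21 were higher and 2 lower, with a median of 0.079, and after scaling 13 were higher, with a median of 0.017. Mcts1, which acts in recycling and reinitiation, was at 1.10, 0.989 and 0.973 FPKM in wild type and 1.34, 1.37 and 1.21 in heterozygous libraries, with no overlap. Its difference was 0.19 (SE 0.089, limma adjusted p 0.899), where 5.55% of all tested genes did not overlap. The list of cytosolic aminoacyl-tRNA synthetase genes also holds Aimp2, which is not named as a synthetase. Its genes had the higher heterozygous mean in 18 of 18 tested, with a median of 0.15. After scaling this held for 17 of 18, with a median of 0.080. In that list Yars and Aimp2 had the smallest p-values. Yars was at 2.88 FPKM in heterozygous replicate 2 and at 1.31 to 1.77 in the other libraries. Of the 6 tested mitochondrial translation factor genes 5 were higher and 1 lower, with a median of 0.088, and 3 of 6 were higher after scaling, with a median of 0.029. The smallest p-values there belonged to Tufm (0.22 as deposited) and Tsfm (0.12).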

How the data were processed

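Total RNA of cerebellum was made into stranded libraries and sequenced as single-end reads of 75 bases, per the labels' protocols. The authors removed mitochondrial and ribosomal sequences, trimmed 2 bases, aligned to mm10 with TopHat2 and Bowtie and deposited FPKM from Cufflinks, 1 library per file, per the labels' protocols. Cuffdiff 2.1.1, named there too, was not used. Not given in the sources used here were the annotation and strand setting. The unit is relative to library size, so an RNA that takes more of a library lowers all other values. In heterozygous replicate 2, 40 values were unreadable, none in a gene reported here.

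Genes whose mean reached 1 FPKM were tested on log2(FPKM + 1) with limma 3.58.1 (intensity trend, R 4.3.3), with Benjamini-Hochberg adjustment over 6358 genes and a threshold of 0.05. This scale understates the change of low genes. FPKM is not a count, so no count test was run. Depth was estimated from whole-read steps. At that depth only 9.6% to 11.7% of the low values used came out whole within 0.05 reads. The median over the depths tried was 4.9% to 5.5%. Most low values were thus not whole, so the depth and the read numbers built on it are only weakly supported. Read-length stretches of 73 bases and coordinates came from GENCODE M21 (GRCm38). Two-sided exact permutation tests used scipy 1.17.1.

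Genes and lists were chosen with earlier results of these data known. The text names the 10 most abundant tested factor genes, the 8 largest positive differences and the negative ones (2), paralogue pairs, eIF2 and eIF2B subunits, eIF4E-binding proteins, Eef2k and the 2 smallest p-values of each other list. Alternatives were other pseudocounts, minimums, scalings and variance models, leaving out libraries and a replicate block. No library was dropped from the comparison.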

Additional observations from a re-analysis of the deposited data

How the results depend on the processing

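The files give FPKM and no counts, so depth is known only approximately. Of 529 values of 34 factor genes under alternatives (those named by rule, with Eif3e and Eif4enif1), 454 kept their direction and side of the threshold, 72 turned and 3 became called. The 3 were Eif2s3y without wild-type replicate 1 or heterozygous replicate 1 or 3. Calls among all genes were 5 in the reported fit, 3 with a pseudocount of 5, 1 without a minimum, 13 with the replicate block, and 0 with median-of-ratios scaling (337 at an unadjusted p under 0.05), quantile normalization (344), small RNA genes left out (326) or limma without trend (203). Leaving out 1 library gave 5 to 62 (62 without wild-type replicate 1, 42 without heterozygous replicate 3, 16 to 19 without wild-type replicate 3 or heterozygous replicate 1 or 2), and leaving out both replicates 2 gave 67. Factor genes called were 0, or 0 to 1 with 1 library left out; the replicate block gave 0. Same-numbered libraries had correlations of deviations of -0.28, -0.52 and 0.14, and no library correlated best with its own number. These deviations are of unscaled values and hold the library-wide shifts, so they cannot show whether the numbers mark pairs. Factor genes without overlap were 0 as deposited, and 1 without a minimum (5.96% of all genes). Overlap was not computed on quantile-normalized values. With median-of-ratios scaling there were 7, all higher in heterozygous libraries (11.2%). With small RNA genes left out there were 6, all higher (10.5%), but without both replicates 2 there were 6, all lower (29.8%). With 1 library left out the factor genes without overlap were 0 to 25. The highest was without wild-type replicate 1, where 40.8% of all genes did not overlap. The factor median minus the all-gene median was 0.036, and 0.0902 without a minimum. It was 0.012 without heterozygous replicate 2, the lowest with 1 library left out, and 0.067 without heterozygous replicate 3, the highest. Without wild-type replicate 1 it was 0.056, without heterozygous replicate 1 0.055, and without both replicates 2 0.017. Paralogue pairs without overlap were 1, and 3 without both replicates 2, 2 as log2 ratios, and 1 to 4 with 1 library left out. These were 4 without heterozygous replicate 3, 3 without wild-type replicate 1, 1 without heterozygous replicate 2 and 2 without any of the others. Fewer libraries make a lack of overlap likelier under random labels, and no background share was computed for pairs.

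Log2 differences of these 34 genes that turned sign were as follows, and the cause was not tested. With median-of-ratios scaling: Eef2 (-0.0047), Eif1a (-0.033), Eif1b (-0.018), Eif4b (-0.0066), Eif4e2 (-0.041), Eif4enif1 (-0.030), Eif4g1 (-0.063), Eif4g2 (-0.0016). Eef1d, outside the 34, turned too (-0.0039). With quantile normalization: Eef1a2 (-0.028), Eef2 (-0.032), Eif1a (-0.035), Eif1b (-0.058), Eif2b4 (-0.0093), Eif4b (-0.036), Eif4e2 (-0.030), Eif4enif1 (-0.021), Eif4g1 (-0.10), Eif4g2 (-0.061), Eif5a (-0.020). With small RNA genes left out: Eef1a2 (-0.035), Eef2 (-0.040), Eif1a (-0.057), Eif1b (-0.052), Eif2b4 (-0.013), Eif2s1 (-0.010), Eif4b (-0.038), Eif4e2 (-0.060), Eif4enif1 (-0.049), Eif4g1 (-0.10), Eif4g2 (-0.036), Eif5a (-0.015). With 1 library, or both replicates 2, left out, the ranges were: Eef1a2 (-0.065 to 0.20), Eef2 (-0.11 to 0.21), Eif1 (-0.053 to 0.31), Eif1a (-0.16 to 0.13), Eif1b (-0.092 to 0.19), Eif2b1 (-0.013 to 0.21), Eif2b2 (-0.10 to 0.18), Eif2b4 (-0.069 to 0.19), Eif2b5 (-0.0065 to 0.23), Eif2s1 (-0.058 to 0.15), Eif2s2 (-0.015 to 0.19), Eif2s3x (-0.0022 to 0.23), Eif2s3y (-0.50 to 0.033), Eif3a (-0.23 to 0.089), Eif4b (-0.11 to 0.16), Eif4e (-0.017 to 0.19), Eif4e2 (-0.035 to 0.053), Eif4enif1 (-0.037 to 0.044), Eif4g1 (-0.18 to 0.13), Eif4g2 (-0.13 to 0.20), Eif4h (-0.030 to 0.23), Eif5a (-0.042 to 0.23), Eif5a2 (-0.13 to 0.24).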
